A study of Mus musculus with 9 samples.

Results

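A set of 10 genes of neutrophil granules and cytosol, S100a8, S100a9, Elane, Mpo, Prtn3, Ngp, Camp, Ltf, Lcn2 and Mmp8, was followed through RNA-seq libraries of mouse bone marrow (BM) endothelial cells (ECs), the cells that line blood vessels. The members were the rows of the deposited count table with these gene names, 10 of 46078 genes. All 10 were found and all 10 passed the filter on low counts. The libraries came from the BM of normal wild type (wt) mice of strain B6 with no treatment named, sorted as CD45-Ter119-CD31+ cells and divided by Sca-1, the product of Ly6a, into a Sca-1+ and a Sca-1- fraction. The gate thus left out cells with surface CD45, the pan-leukocyte protein, and red cell precursors with Ter119. There were 4 Sca-1+ libraries, with label numbers 7, 13, 15 and 19, and 5 Sca-1- libraries, with label numbers 8, 10, 14, 16 and 22. The titles of libraries 13, 14 and 22 carry the term CD452 and that of library 10 its digits without the letters, those of 8, 15, 16 and 19 carry wt and that of 7 neither, and the labels do not say what CD452 stands for. The labels give no age and do not say how many mice went into a library, so the p-values measure the spread between these libraries.

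Developing neutrophils fill their granules in sequence. Promyelocytes make the azurophil granules, which carry myeloperoxidase and the serine proteases, and later precursors make the specific and gelatinase granules, which carry lactoferrin, the cathelicidin peptide and lipocalin. Transcripts of both sets are lost again as neutrophils mature, whereas the calcium-binding pair S100a8 and S100a9 fills the cytosol of mature cells, so these genes read out stages of neutrophil development in BM, and none of them is a gene by which ECs are known. Here Mpo (myeloperoxidase, which makes hypochlorous acid), Elane (neutrophil elastase) and Prtn3 (proteinase 3) stand as azurophil members. Ltf (lactoferrin, an iron binder), Camp (the cathelicidin precursor), Lcn2 (lipocalin 2, which binds bacterial siderophores), Ngp (neutrophilic granule protein) and Mmp8 (neutrophil collagenase) stand as specific granule members, and S100a8 and S100a9 as cytosolic members.

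The azurophil and the specific granule members went separate ways between libraries. The azurophil members were counted in every Sca-1- library, most of all in library 14, and all 3 were at most at 1.04 CPM (counts scaled to library size, with TMM factors) in Sca-1+ libraries 15 and 19. The specific granule and cytosolic members were near 0 in Sca-1+ libraries 7, 13 and 15, and each had its highest level of all 9 libraries in Sca-1+ library 19. In Sca-1- libraries 14 and 16, Ltf and Camp had no count. In bulk RNA, fewer cells of a type and less RNA per cell cannot be told apart, and this holds for every level given here.

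The members fall into chromosomal groups, which are given with the 250 bases upstream of a RefSeq transcript start for 6 of them, chosen because Mpo, Elane and Prtn3 were high in the same libraries, as were Ltf, Camp and Ngp of the other class. Coordinates of genes follow GENCODE on GRCm38, the build also called mm10. S100a8 (ENSMUSG00000056054, chr3:90668978-90670035, + strand) and S100a9 (ENSMUSG00000056071, chr3:90692632-90695721, - strand) lie 22.6 kb apart with 0 protein-coding genes between them. Prtn3 (ENSMUSG00000057729, chr10:79874476-79883174, + strand) and Elane (ENSMUSG00000020125, chr10:79886247-79888215, + strand) lie 3.1 kb apart, also with 0 between. Mpo (ENSMUSG00000009350, chr11:87793581-87804413, + strand) stands alone, as do Lcn2 (ENSMUSG00000026822, chr2:32384633-32388252, - strand) and Mmp8 (ENSMUSG00000005800, chr9:7558456-7568485, + strand). Camp (ENSMUSG00000038357, chr9:109847379-109849617, - strand), Ngp (ENSMUSG00000032484, chr9:110419747-110423012, + strand) and Ltf (ENSMUSG00000032496, chr9:111019271-111042767, + strand) share a stretch of chromosome 9. All are annotated as protein-coding.

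The letters GAGGAAGT are a core bound by PU.1, a transcription factor of myeloid cells, and TTNNGCAA is a form of the site bound by C/EBP factors, which drive granule genes. Both were searched on both strands, as GAGGAAGT or ACTTCCTC and as TTNNGCAA or TTGCNNAA, after the sequences had been seen. The 2 patterns did not overlap each other in the printed windows. The windows are from RefSeq on GRCm38.p6, are printed 5′ to 3′ and have the matched letters in capitals. Each of the 6 ends at a RefSeq start that lies inside the GENCODE gene, farthest in for Prtn3.
Mpo, chr11:87793534-87793783, + strand: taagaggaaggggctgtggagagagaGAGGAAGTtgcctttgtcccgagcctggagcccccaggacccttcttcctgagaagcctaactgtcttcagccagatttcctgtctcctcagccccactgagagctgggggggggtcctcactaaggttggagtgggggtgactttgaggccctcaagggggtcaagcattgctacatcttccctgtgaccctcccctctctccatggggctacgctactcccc
Elane, chr10:79886062-79886311, + strand: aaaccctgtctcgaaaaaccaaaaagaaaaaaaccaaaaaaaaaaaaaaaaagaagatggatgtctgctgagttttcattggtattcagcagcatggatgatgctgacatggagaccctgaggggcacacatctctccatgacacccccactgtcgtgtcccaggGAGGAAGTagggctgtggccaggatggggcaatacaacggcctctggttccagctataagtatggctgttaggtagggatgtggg
Prtn3, chr10:79879417-79879666, + strand: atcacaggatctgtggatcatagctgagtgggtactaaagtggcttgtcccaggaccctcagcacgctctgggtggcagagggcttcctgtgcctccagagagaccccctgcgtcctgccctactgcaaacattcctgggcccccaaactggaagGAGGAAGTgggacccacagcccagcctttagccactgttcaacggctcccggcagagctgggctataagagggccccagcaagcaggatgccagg
Ltf, chr9:111019042-111019291, + strand: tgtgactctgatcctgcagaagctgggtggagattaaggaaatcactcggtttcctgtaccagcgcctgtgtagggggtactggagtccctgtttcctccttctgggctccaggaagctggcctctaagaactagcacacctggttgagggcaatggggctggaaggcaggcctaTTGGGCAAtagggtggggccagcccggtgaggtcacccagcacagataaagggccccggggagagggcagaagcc
Ngp, chr9:110419558-110419807, + strand: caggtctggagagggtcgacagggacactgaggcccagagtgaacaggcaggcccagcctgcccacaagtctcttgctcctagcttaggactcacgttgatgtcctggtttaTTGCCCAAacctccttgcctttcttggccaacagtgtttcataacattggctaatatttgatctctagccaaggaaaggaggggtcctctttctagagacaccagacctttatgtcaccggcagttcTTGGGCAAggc
Camp, chr9:109849457-109849706, - strand: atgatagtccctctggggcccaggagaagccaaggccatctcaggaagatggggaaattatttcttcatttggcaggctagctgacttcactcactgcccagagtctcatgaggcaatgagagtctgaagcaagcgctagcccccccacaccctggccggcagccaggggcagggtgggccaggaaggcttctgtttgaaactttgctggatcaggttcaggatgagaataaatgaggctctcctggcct

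The PU.1 letters were found in all 3 azurophil windows, 224, 85 and 95 bases before the start in Mpo, Elane and Prtn3, each on the gene's own strand. They were also found in S100a8 and Mmp8, and they occurred in 3.2% of 32851 RefSeq promoter windows of the same 300 bases (250 before to 50 after the start). The C/EBP letters were found in Ltf, 75 bases before the start, at 2 places in Ngp, 138 and 11 bases before it, and in Lcn2, Mmp8 and S100a9. They occurred in 10.8% of all windows. Camp held neither. The azurophil windows thus held the first pattern and not the second, and Ltf, Ngp and Lcn2 held the second and not the first. A match is a description of these letters and says nothing of binding.

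Total counts were 21581653 to 25959818 per library, at which 3 counts, taken as the floor, were worth 0.0995 to 0.209 CPM. The sort marker Ly6a was at 872.9 to 1302 CPM in the Sca-1+ libraries and at 0.240 to 1.49 CPM in the Sca-1- libraries. A list of 25 general endothelial genes summed to 18370 to 21980 CPM in the Sca-1+ libraries and to 1686 to 4476 CPM in the Sca-1- libraries, in which a list of 16 megakaryocyte and platelet genes reached 27150 to 118100 CPM against 105.9 to 184.4 CPM. By these lists the Sca-1- libraries went against their label as ECs. Library 19 stood apart from the other Sca-1+ libraries in 7 of the 10 members and, among other genes, in Igkc. Igkc, the kappa light chain of antibodies, named after its values were seen, had 51186 counts there against 7 to 18. Ddx3y, a gene of the Y chromosome also named after its values were seen, had 737 to 4405 counts in libraries 7, 15, 8 and 16 and 0 or 1 in the other libraries, so both fractions mixed mice with and without it. Libraries of one fraction were not copies of each other, their counts differing by a chi-square of at least 36.8 per degree of freedom.

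**Figure D1:**
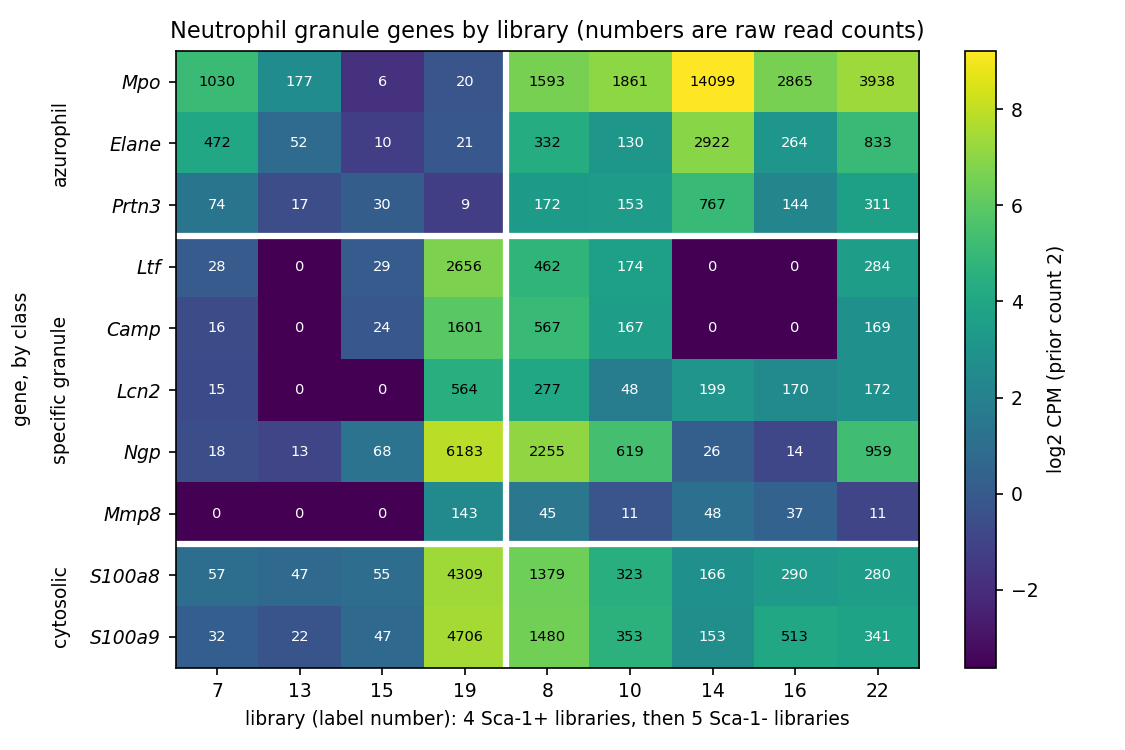
Colour gives log2 CPM (prior count 2) of the 10 genes (rows, by class) in the 9 libraries (columns by label number, 4 Sca-1+ and then 5 Sca-1-), and the numbers are raw read counts. The azurophil rows peak in library 14 (14099 counts of Mpo), the rows of the other 7 genes peak in library 19 (6183 counts of Ngp), and Ltf and Camp read 0 in libraries 13, 14 and 16.

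Mpo had 35.1, 6.02, 0.207 and 0.772 CPM in Sca-1+ libraries 7, 13, 15 and 19, and 95.6, 129.9, 597.6, 95.0 and 160.2 CPM in Sca-1- libraries 8, 10, 14, 16 and 22. Every Sca-1- library lay above every Sca-1+ library, with library 7 the highest of the Sca-1+ and library 14 the highest of all. The means were 10.5 ± 16.6 CPM (SD, n = 4) and 215.6 ± 215.2 CPM (SD, n = 5), and Mpo was lower in Sca-1+ ECs by a log2 fold change of -4.36 ± 1.34 (SE, adjusted p = 0.023 by edgeR's quasi-likelihood test with Benjamini-Hochberg adjustment over the 15937 genes tested). Single libraries carried much of this. Without Sca-1+ library 13 the adjusted p by edgeR was 0.0645 at a log2 fold change of -4.16, without library 7 the log2 fold change was -6.52, and without Sca-1- library 14 it was -3.63, both with adjusted p-values by edgeR under the threshold of 0.05 (0.00482 and 0.0399).

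Prtn3 was counted at 2.52, 0.578, 1.04 and 0.347 CPM in Sca-1+ libraries 7, 13, 15 and 19 and at 10.3, 10.7, 32.5, 4.77 and 12.7 CPM in Sca-1- libraries 8, 10, 14, 16 and 22. Again the fractions did not overlap and library 14 was the highest. Its means were 1.12 ± 0.976 CPM (SD, n = 4) in Sca-1+ and 14.2 ± 10.7 CPM (SD, n = 5) in the Sca-1- libraries, and it was lower in Sca-1+ ECs by a log2 fold change of -3.65 ± 0.75 (SE, edgeR adjusted p = 0.00279). No library left out alone took this call away, the log2 fold changes then being -4.42 (without library 7) to -3.21 (without library 14). With libraries 7 and 8, 13 and 14, and 15 and 16 fitted as pairs, Prtn3 was not called (edgeR adjusted p = 0.0603). Without pairs, these 6 libraries gave an edgeR adjusted p of 0.0237. Mpo was called in neither fit (edgeR adjusted p = 0.0618 and 0.0833). Mpo and Prtn3 share exon bases with a gene on the opposite strand, 512 bp with Gm11505 and 159 bp with Plppr3. Since the use of strand in the counting is not given in the sources used here, some of their reads cannot be assigned to one strand.

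Elane was also highest in library 14 and, among the Sca-1+ libraries, in library 7, but did not pass the test. Its levels were 16.1, 1.77, 0.345 and 0.811 CPM in Sca-1+ libraries 7, 13, 15 and 19, and 19.9, 9.07, 123.9, 8.75 and 33.9 CPM in Sca-1- libraries 8, 10, 14, 16 and 22. Library 7, with 472 counts, lay above Sca-1- libraries 10 and 16 on the CPM scale, so the fractions overlapped. The log2 fold change was -3.04 ± 1.23 (SE, edgeR adjusted p = 0.0678). Without library 7 it was -5.31 with an edgeR adjusted p of 0.00715.

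On the scale of CPM per kb of exon, which allows levels of different genes to be compared, Mpo lay above Elane in each of the 5 Sca-1- libraries. Mpo stood at 27.9, 37.9, 174.5, 27.7 and 46.8 and Elane at 20.3, 9.22, 125.9, 8.90 and 34.4 CPM per kb in libraries 8, 10, 14, 16 and 22. In Sca-1+ library 7 Elane lay above Mpo, at 1.60 times its level per kb. In library 13 they were about level, at 1.02 times on 52 counts of Elane and 177 of Mpo. In libraries 15 and 19 the ratio was 5.80 and 3.65, on 6 to 21 counts of either gene. The exon bases that Mpo shares with Gm11505 may also enter its level per kb.

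S100a8 had 1.94, 1.60, 1.90 and 166.3 CPM in Sca-1+ libraries 7, 13, 15 and 19 and 82.8, 22.5, 7.04, 9.62 and 11.4 CPM in Sca-1- libraries 8, 10, 14, 16 and 22. Its partner S100a9 had 1.09, 0.748, 1.62 and 181.7 CPM in the same Sca-1+ libraries and 88.8, 24.6, 6.49, 17.0 and 13.9 CPM in the same Sca-1- libraries. For both genes every Sca-1- library lay above Sca-1+ libraries 7, 13 and 15 and below library 19. The Sca-1+ means of 42.9 ± 82.3 CPM for S100a8 and 46.3 ± 90.3 CPM for S100a9 (SD, n = 4) therefore describe no single library. Over all 9 libraries the log2 fold changes were 0.69 ± 1.38 for S100a8 and 0.62 ± 1.46 for S100a9 (SE, edgeR adjusted p = 0.71 and 0.756). Without library 19 both genes were lower in Sca-1+ ECs, S100a8 by -3.87 ± 0.94 and S100a9 by -4.70 ± 0.96 on the log2 scale (SE, edgeR adjusted p = 0.0104 and 0.00474).

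The products of S100a8 and S100a9 pair as calprotectin, and the ratio of the 2 transcripts per kb was 0.689 in library 19, 0.701 in library 8 and 0.688 in library 10. It was 0.816, 0.425 and 0.618 in Sca-1- libraries 14, 16 and 22, lowest in library 16, which had 290 and 513 counts of the pair. In Sca-1+ libraries 7, 13 and 15, where S100a9 rested on 22 to 47 counts, it was 1.34, 1.61 and 0.880.

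Ngp reached the highest CPM of the specific granule members. It had 0.613, 0.442, 2.35 and 238.7 CPM in Sca-1+ libraries 7, 13, 15 and 19, and 135.3, 43.2, 1.10, 0.464 and 39.0 CPM in Sca-1- libraries 8, 10, 14, 16 and 22. The Sca-1- libraries split into 3 with at least 39.0 CPM and 2, libraries 14 and 16, with 26 and 14 counts, at the level of the low Sca-1+ libraries. The log2 fold change over all libraries was 0.47 ± 1.82 (SE, edgeR adjusted p = 0.853), and without library 19 it was -5.26 ± 1.83 (SE, edgeR adjusted p = 0.0469).

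Ltf had 28, 0, 29 and 2656 counts in Sca-1+ libraries 7, 13, 15 and 19 and 462, 174, 0, 0 and 284 counts in Sca-1- libraries 8, 10, 14, 16 and 22. Camp had 16, 0, 24 and 1601 counts and 567, 167, 0, 0 and 169 counts in the same order. For both genes the zeros were in libraries 13, 14 and 16, so that each fraction held libraries with and without them. The lowest of Sca-1- libraries 8, 10 and 22 was at least 90.8-fold higher in Ltf and at least 54.1-fold higher in Camp than the floor of libraries 14 and 16 (3 counts per library). Within the Sca-1+ fraction, library 19 was at least 1005-fold higher in Ltf and at least 605.6-fold higher in Camp than the floor of library 13. Neither gene passed the test between the fractions, with log2 fold changes of 1.35 ± 1.94 for Ltf and 0.59 ± 1.95 for Camp (SE, edgeR adjusted p = 0.598 and 0.825). Without library 19 they were -3.97 ± 2.17 and -4.50 ± 2.26 (SE, edgeR adjusted p = 0.179 and 0.145), still short of the threshold.

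Lcn2 and Mmp8 shared the zero in library 13 but not those in libraries 14 and 16. Lcn2 had 15, 0, 0 and 564 counts in Sca-1+ libraries 7, 13, 15 and 19 and 277, 48, 199, 170 and 172 counts in Sca-1- libraries 8, 10, 14, 16 and 22. Mmp8 had no count in Sca-1+ libraries 7, 13 and 15, 143 counts in library 19, and 45, 11, 48, 37 and 11 counts in Sca-1- libraries 8, 10, 14, 16 and 22. In libraries 14 and 16, where Ltf and Camp were at 0, Lcn2 had 8.435 and 5.636 CPM and Mmp8 2.035 and 1.227 CPM. On the CPM scale both were within the range of the other Sca-1- libraries, 3.349 to 16.62 CPM for Lcn2 and 0.4474 to 2.701 CPM for Mmp8. Between the fractions the log2 fold changes were -0.56 ± 1.52 for Lcn2 and -0.06 ± 1.59 for Mmp8 (SE, edgeR adjusted p = 0.789 and 0.981). Without library 19, Lcn2 was lower in Sca-1+ ECs by -5.54 ± 1.36 (SE, edgeR adjusted p = 0.0111). Mmp8 was then also lower (edgeR adjusted p = 0.00279), and since its 3 remaining Sca-1+ libraries were at 0, its size is given as a bound, the Sca-1- mean being at least 13.9-fold higher than their floor of 3 counts per library.

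**Figure D2:**
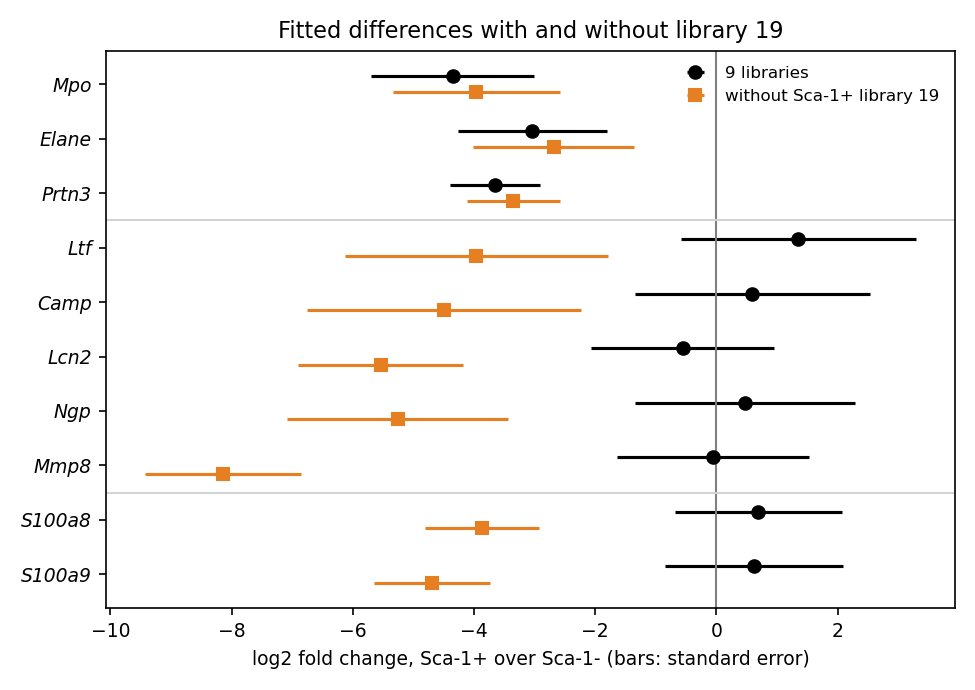
Points give the log2 fold change, Sca-1+ over Sca-1-, of each gene in edgeR's fit (bars, SE), for all 9 libraries (black circles) and without Sca-1+ library 19 (orange squares). The azurophil genes stay near their place (Mpo -4.36 and -3.96), whereas the other 7 move from near 0 to between -3.87 (S100a8) and -8.15 (Mmp8, whose value depends on the prior count).

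Over all 9 libraries, 2 of the 10 members (Mpo and Prtn3) were lower in Sca-1+ ECs and 0 were higher by edgeR at an adjusted p under 0.05, against 21.4% of all genes tested lower and 23.3% higher (44.8% in either direction). A share of 2 in 10 is near that background. The median log2 fold change of the members was 0.21 and that of all genes was 0.07. Without library 19, 7 of the 10 were lower (S100a8, S100a9, Mpo, Prtn3, Lcn2, Ngp and Mmp8) and 0 were higher, against 18.9% lower and 19.9% higher (38.8% in either direction) of the 16433 genes then tested, and the median of the members was -4.23 against 0.07 for all genes. Read by levels, 2 members had every Sca-1- library above every Sca-1+ library, against 18.8% of genes, and 6 had every Sca-1- library above Sca-1+ libraries 7, 13 and 15, against 20.7%. Since 7 of the 10 members had their highest level in library 19, leaving it out lowers their Sca-1+ level in advance. The counts without library 19 are therefore a description, and the shares of all genes are not a like background for them.

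Library 19 was the highest of the 9 libraries for 7 of the 10 members, against 16.6% of genes, and library 14 was the highest for the 3 azurophil members, against 9.04% of genes. Over the mean of Sca-1+ libraries 7, 13 and 15, it held 210.7-fold the level of Ngp, 157.6-fold of S100a9, 157.5-fold of Ltf, 135.1-fold of Camp, 127.9-fold of Lcn2 and 91.8-fold of S100a8. Mmp8 was at least 53.4-fold higher in it than the floor of those libraries. These 7 also stood at 2.65-fold (Lcn2) to 9.97-fold (Ltf) the mean of the Sca-1- libraries. With 0.5 CPM added to each level, 15 of the 15937 genes tested were at least 16-fold higher in library 19 than in the mean of the other Sca-1+ libraries (0.0941%), and 6 of the 15 were members. Ngp ranked 2, S100a9 3, Ltf 6, S100a8 7, Camp 8, Lcn2 9 and Mmp8 20 among all genes tested, and Igkc ranked 1. The azurophil members were at the other end of this order, Mpo at 15932, Elane at 15906 and Prtn3 at 15326 of 15937. They had 0.0561, 0.134 and 0.252 times the mean of the other 3 libraries. In Mpo and Elane that mean was carried by library 7 (35.1 and 16.1 CPM). Library 15 lay below library 19 in both, at 0.207 against 0.772 CPM of Mpo and 0.345 against 0.811 CPM of Elane. Only Prtn3 had its lowest Sca-1+ level in library 19.

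Neighbours on chromosome 9 were not raised as the members were. The 8 protein-coding genes between Camp and Ngp, all 8 of them tested, had log2 ratios of -0.80 to 0.88 between library 19 and the other Sca-1+ libraries. The 12 tested of the 20 between Ngp and Ltf had -0.62 to 1.64, and 0 of these 20 tested genes reached 4-fold. Of all genes tested, 129 (0.809%) were at least 4-fold higher in library 19, the 7 members among them.

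Summed over each class per kb of exon, the azurophil members stood at 28.0, 3.89, 1.01 and 1.25 CPM per kb in Sca-1+ libraries 7, 13, 15 and 19 and at 54.1, 53.3, 319.2, 39.4 and 88.5 in Sca-1- libraries 8, 10, 14, 16 and 22. The specific granule members summed to 1.69, 0.362, 3.30 and 317.2 CPM per kb in the Sca-1+ libraries and to 171.1, 55.8, 4.96, 3.03 and 47.2 in the Sca-1- libraries, in the same order. The azurophil sum was 64.4 times the specific sum in library 14, 16.6 times in library 7, 12.98 times in library 16 and 10.8 times in library 13. The reverse ratio was 253.7 in library 19, 3.27 in library 15 and 3.16 in library 8, and the classes were within a factor of 1.88 of each other in libraries 10 and 22. Both fractions therefore held libraries with an azurophil and libraries with a specific granule excess, and a class excess is read here as a description with no test.

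**Figure D3:**
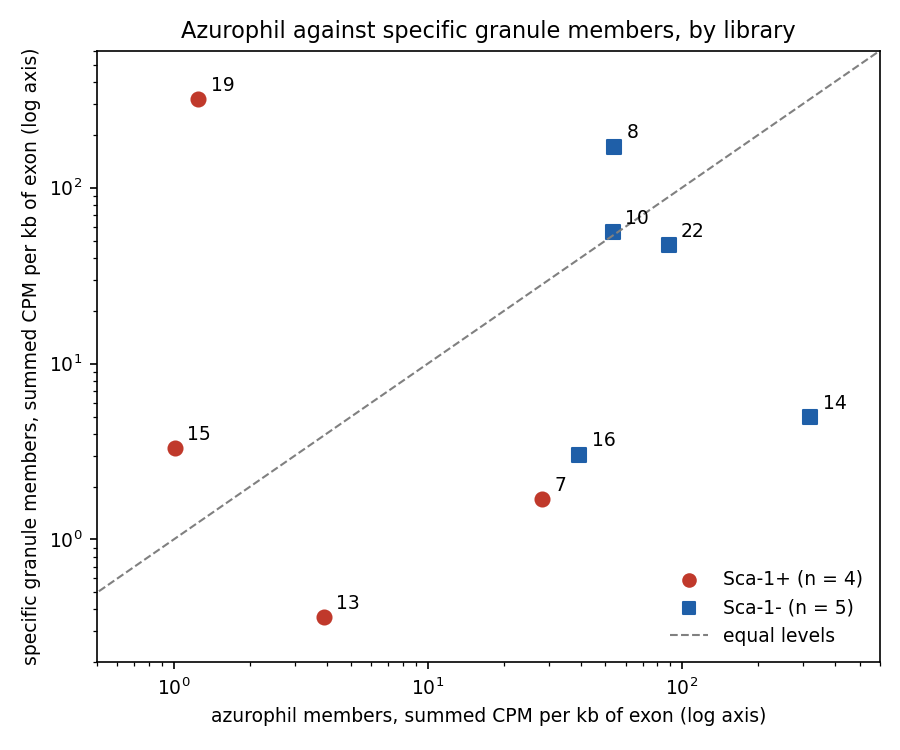
Each point is a library (red circles Sca-1+, blue squares Sca-1-, numbers from the labels), with the summed level of the 3 azurophil genes on the x axis and of the 5 specific granule genes on the y axis, both in CPM per kb of exon on log axes. The Sca-1- libraries share a high azurophil level (39.4 to 319.2) and spread from 3.03 to 171.1 on the y axis, and library 19 lies alone at 1.25 and 317.2.

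Libraries 15 (Sca-1+) and 16 (Sca-1-) share a further number in their labels, which may mark one animal. Mpo was at 0.207 CPM in library 15 and 95.0 in library 16, S100a9 at 1.62 and 17.0, and Lcn2 at 0 and 5.64, each higher in library 16. Ngp was higher in library 15, with 2.35 CPM in library 15 and 0.464 in library 16, and Ltf and Camp had 29 and 24 counts in library 15 and 0 in library 16.

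Other genes of the same granules, from lists written for general knowledge of these compartments, were read in the same fit. Of 8 further azurophil and promyelocyte genes, 7 were tested, of which 5 were lower in Sca-1+ ECs (Srgn, Serpinb1a, Nkg7, Ctsg and Ms4a3) and 1 was higher (Ctsc, whose sign turned when libraries were scaled to the endothelial list). The 4 with the highest mean level were Srgn, Serpinb1a, Ctsc and Nkg7. Srgn, the proteoglycan core of granules in many blood cells and also made by ECs, was at 447.8 to 569.6 CPM in Sca-1+ and 917.2 to 3630 CPM in Sca-1- libraries (log2 fold change -1.995, edgeR adjusted p = 0.00517). Serpinb1a, an elastase inhibitor, had 22.6 to 47.8 and 202.9 to 307.3 CPM (log2 fold change -2.79, edgeR adjusted p = 5.26e-05), and Nkg7, a granule membrane protein best known in killer lymphocytes, had 0 to 0.579 and 17.5 to 74.6 CPM (log2 fold change -6.84, edgeR adjusted p = 0.00019). Ctsc, which activates the serine proteases, was the one that was higher, at 124.1 to 216.5 against 16.9 to 57.4 CPM (log2 fold change 2.29, edgeR adjusted p = 0.000413). Ctsg, cathepsin G, named after its values were seen, had 2.38, 0.442, 0 and 0 CPM in Sca-1+ libraries 7, 13, 15 and 19, and was highest not in Sca-1- library 14 (30.6 CPM), as the azurophil members were, but in library 16 (51.4 CPM). Of the 8 genes, 3 had their highest Sca-1+ level in library 19 and 5 did not. Prss57, also named after its values were seen, had 6.76 CPM there against 2.31 to 3.30 CPM in the other Sca-1+ libraries. It did not pass (log2 fold change -0.07, edgeR adjusted p = 0.919).

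Of 20 further specific and gelatinase granule genes, 12 were tested, of which 2 were lower in Sca-1+ ECs (Lyz2 and Cyba) and 1 was higher (Hp, whose sign turned with endothelial scaling). Without library 19, 6 were lower and 0 higher, against 18.9% and 19.9% of all genes then tested. This is a description only, since 11 of the 20 had their highest Sca-1+ level in library 19. Leaving it out lowers their Sca-1+ level in advance. Lyz2, lysozyme of myeloid cells, had 5.48, 9.08, 2.76 and 142.1 CPM in Sca-1+ libraries 7, 13, 15 and 19 and 770.6 to 2433 CPM in the Sca-1- libraries (log2 fold change -5.37, edgeR adjusted p = 0.00597). Slpi, an inhibitor of elastase, had 0.340, 0.680, 0.276 and 83.8 CPM and 208.5 to 513.6 CPM (log2 fold change -4.08, edgeR adjusted p = 0.0626). Both were raised in library 19 above the other Sca-1+ libraries, as the specific granule members were, but stayed below every Sca-1- library, as those members did not. Cyba, a subunit of the NADPH oxidase, had 167.9 to 291.6 and 409.7 to 784 CPM (log2 fold change -1.28, edgeR adjusted p = 0.00495), and Anxa1, annexin A1, had 461.6 to 578.1 and 59.7 to 499.7 CPM (log2 fold change 1.34, edgeR adjusted p = 0.0533). Chil3 and Cd177, both of neutrophil precursors or neutrophils and named after their values were seen, had their highest levels in library 19, 60.1 CPM of Chil3 and 14.7 CPM of Cd177, and both were at 0 CPM in Sca-1- library 16. In library 14, Cd177 was at 0 CPM and Chil3 at 14.6 CPM. Of the 20 genes, 11 had their highest Sca-1+ level in library 19 and 9 did not, 4 of these being at the floor in all Sca-1+ libraries. Mmp9, Retnlg and Pglyrp1, also named after their values were seen, were highest of all in libraries 7 (65.4 CPM), 8 (21.6 CPM) and 16 (63.0 CPM). In library 19 they had 11.2, 10.6 and 10.2 CPM.

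Of 16 genes of the neutrophil surface and of chemotaxis, 15 had their highest Sca-1+ level in library 19. The share of all genes with their highest Sca-1+ level there is not given here, for this or the other lists. Some of the 15 rested on few counts in library 19, such as Fpr2 with 6, Clec4d with 7 and Ceacam10 with 8, named here after their values were seen. Of the 16, 13 were tested, of which 5 were lower in Sca-1+ ECs (Clec4d, Trem1, Adam8 and Cxcr2 among them) and 0 were higher. Without library 19 it was 9 and 0, against 18.9% and 19.9% of all genes then tested. Since 15 of the 16 were highest there among the Sca-1+ libraries, leaving it out lowers their Sca-1+ level in advance. That count is therefore a description, and the shares of all genes are not a like background for it. The summed level of the 16 genes was 1.10 to 4.02 CPM in Sca-1+ libraries 7, 13 and 15, 34.6 CPM in library 19, and 77.6 to 286.8 CPM in the Sca-1- libraries. Clec4d, a C-type lectin, was at 0 to 0.270 CPM in Sca-1+ and 24.8 to 86.2 CPM in Sca-1- libraries (edgeR adjusted p = 5.75e-05). Trem1, an activating receptor, was at 0 to 0.374 and 8.02 to 38.5 CPM, and Adam8, a surface protease, at 0.102 to 1.24 and 1.79 to 60.6 CPM (edgeR adjusted p = 0.000605 and 0.00494).

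Of the genes that define neutrophils at their surface, Csf3r and Ly6g were low in every library, and Cxcr2 was not. Csf3r, the receptor for G-CSF, had 0, 0, 0.173 and 1.62 CPM in Sca-1+ libraries 7, 13, 15 and 19 and 2.04, 0.768, 2.16, 0 and 0.895 CPM in Sca-1- libraries 8, 10, 14, 16 and 22 (edgeR adjusted p = 0.482). Ly6g, which marks neutrophils in mice, had 31 counts in library 19 and at most 3 in any other library, and was not tested. Cxcr2, the chemokine receptor of mature neutrophils, had no count in Sca-1+ libraries 7, 13 and 15, 1.62 CPM in library 19, and 0.960, 3.84, 14.2, 42.2 and 1.34 CPM in Sca-1- libraries 8, 10, 14, 16 and 22 (log2 fold change -4.96, edgeR adjusted p = 0.0452). Its highest levels were thus in Sca-1- libraries 14 and 16, the libraries in which Ltf and Camp were at 0.

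Transcription factors of myeloid cells, a list not limited to granulocytes, were split. Of 12, 11 were tested, with 4 higher (Cebpb, Cebpd, Irf8 and Klf4) and 4 lower (Cebpa, Spi1, Runx1 and Myb) in Sca-1+ ECs, and Cebpb, Cebpd and Irf8 turned sign with endothelial scaling. Cebpb and Cebpd, which ECs also express, had 198.8 to 601.2 and 182.8 to 306.3 CPM in Sca-1+ libraries, against 75.8 to 286.4 and 9.14 to 45.5 CPM (edgeR adjusted p = 0.0352 and 0.000277). Lmo2 and Cbfb, the others of the 4 with the highest means, did not pass (edgeR adjusted p = 0.254 and 0.229). Cebpe, which drives specific granule genes, had 0.306, 0, 0.0345 and 2.55 CPM in Sca-1+ libraries 7, 13, 15 and 19, and 1.86, 1.47, 1.57, 0 and 0.407 CPM in Sca-1- libraries 8, 10, 14, 16 and 22 (edgeR adjusted p = 0.784). Its highest library was 19, as for the specific granule members, and it was at 1.57 CPM in library 14, where Ltf and Camp had no count.

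Markers of other cells also differed between libraries, and their part in the members' levels was not tested. Of 16 general leukocyte genes, 14 were lower in Sca-1+ ECs and 0 were higher. Their sums were 3277 to 6115 CPM in the Sca-1- libraries and 380.4 to 504 CPM in the Sca-1+ libraries, with library 19 the lowest at 380.4 CPM. Gene by gene, however, 13 of the 16 had their highest Sca-1+ level in library 19. The sum was carried by abundant genes that were low there, such as Fcer1g (71.8 CPM against 179.9 to 209.6 CPM), whereas Itgb2, an integrin chain of leukocytes, was at 7.64 CPM against at most 0.545 CPM, and Cd52 at 16.6 CPM against at most 0.306 CPM, these 3 genes being named after their values were seen. Ptprc, which encodes CD45, had 0.817, 0, 0 and 2.55 CPM in Sca-1+ libraries 7, 13, 15 and 19 and 17.2 to 47.7 CPM in the Sca-1- libraries (log2 fold change -5.10, edgeR adjusted p = 0.00691), so its transcript was counted in Sca-1- libraries although the gate left out CD45+ cells. Of 8 B and plasma cell genes tested, 5 were lower in Sca-1+ ECs. The 12 genes of this list summed to 2037 CPM in library 19, of which Igkc gave 1976 CPM, to 2 to 3.51 CPM in the other Sca-1+ libraries and to 40.1 to 824.6 CPM in the Sca-1- libraries, with Ms4a1, which encodes the B cell protein CD20, at the floor in all Sca-1+ libraries.

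Among granulocyte lineages other than the neutrophil, the 12 eosinophil, basophil and mast cell genes summed to 224.7 CPM in library 19 against 118.6 to 150.6 CPM in the other Sca-1+ libraries, and to 559.4 to 13290 CPM in the Sca-1- libraries, with 8 of 9 tested lower in Sca-1+ ECs. The highest sum was in library 16 and library 14 came next at 2294 CPM, the Sca-1- libraries without Ltf and Camp counts. Much of the sum in the other libraries came from Gata2, which ECs also express, named after its values were seen. Gata2 had 166 CPM in library 19 and 99.3 to 125.7 CPM in the other Sca-1+ libraries. In Sca-1- libraries 8, 10, 14, 16 and 22 it had 927.5, 1824, 510.9, 629.8 and 330 CPM. The sums of the 12 monocyte and macrophage genes overlapped, with 149.4 to 244.7 CPM in Sca-1+ and 23.6 to 301.5 CPM in Sca-1- libraries, and 1 of 10 tested called in each direction. Cd14, called higher, carried most of the Sca-1+ sums, with 93.3 to 225.4 CPM against 4.89 to 23.0 CPM in Sca-1- libraries. Fcgr3, called lower, had 0.828 to 3.40 and 5.08 to 223.2 CPM, the highest in library 16. Csf1r, the defining receptor of these cells, had 2.65 to 7.30 and 2.85 to 6.27 CPM (edgeR adjusted p = 0.779). Of 11 erythroid genes tested, 9 were lower in Sca-1+ ECs, with sums of 177.8 to 346 and 1388 to 2762 CPM. T and NK cell genes summed to at most 3.82 CPM in any library, and 8 of 10 were at the floor in all Sca-1+ libraries. Of 12 stromal and osteoblast genes, 2 were higher (Cxcl12 and Lepr, which turned sign with endothelial scaling) and 3 lower in Sca-1+ ECs.

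**Figure D4:**
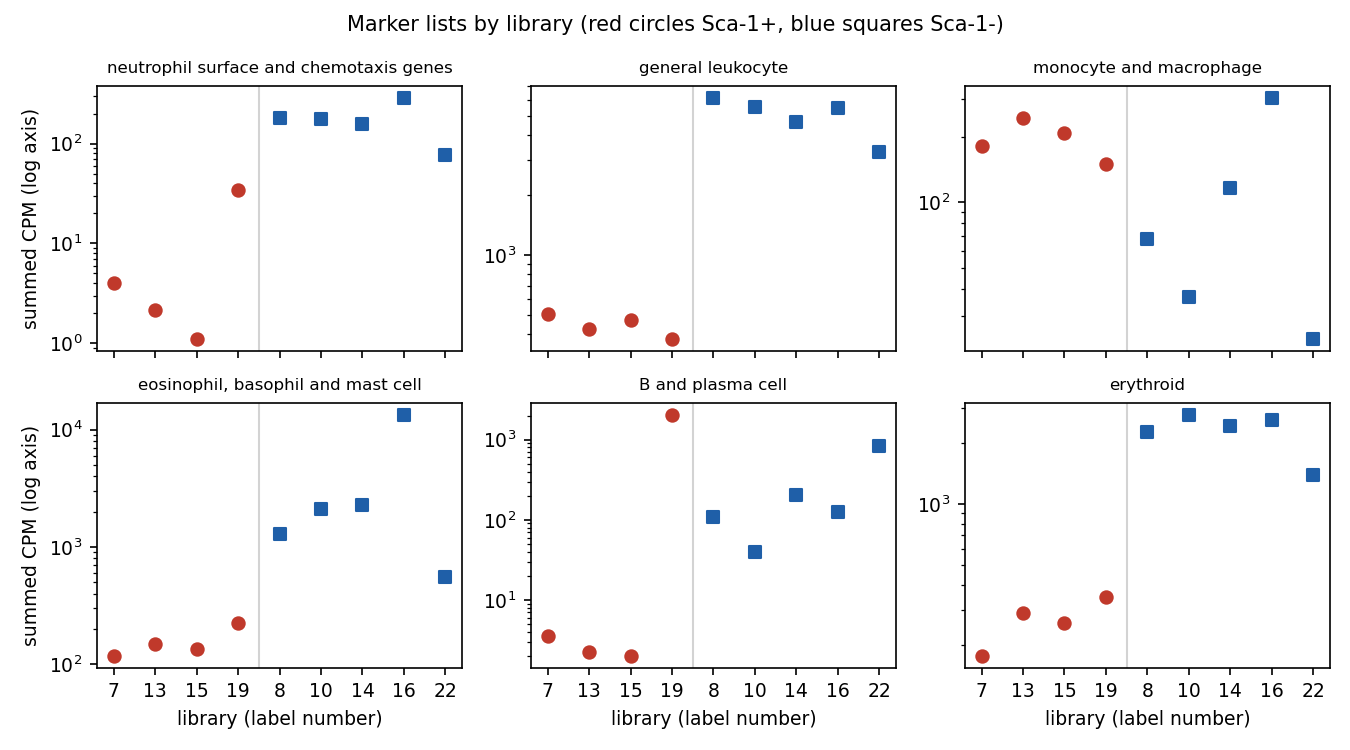
Summed CPM (log axes) of 6 marker lists in each library, by label number (red circles Sca-1+, blue squares Sca-1-). Library 19 rises above the other Sca-1+ libraries in the neutrophil surface list (34.6 CPM) and the B and plasma cell list (2037 CPM). The general leukocyte sum is lowest of the Sca-1+ libraries in library 19 (380.4 CPM) although 13 of its 16 genes are highest there, and library 16 tops the eosinophil, basophil and mast cell list (13290 CPM).

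The genes whose log2 CPM followed the mean of the members most closely, of 12906 genes with an average log2 CPM of at least 1, were Lrrc56 (Pearson's r = 0.94 over 9 libraries), Ctss (0.93), Mnt (0.92), Tnfrsf21 (0.92), Treml4 (0.92), Pld4 (0.91), Zmiz2 (0.91), Spast (0.91), Hbb-bs (0.91) and Smim13 (0.91). Ctss, the protease cathepsin S of antigen-presenting cells, had its highest level in library 19 too, at 15.5 CPM. These values are a description over libraries that share their depth and scaling. When the classes were taken apart, after their values were seen, the closest to the azurophil mean was Gm11505 (r = 0.98 over 9 libraries), the gene that overlaps Mpo on the opposite strand, at 9.26, 1.74, 0 and 0.347 CPM in Sca-1+ libraries 7, 13, 15 and 19 and 24.9, 32.7, 150.3, 23.7 and 40.9 CPM in Sca-1- libraries 8, 10, 14, 16 and 22. The closest to the mean of the specific granule and cytosolic members was Cd177 (r = 0.96 over 9 libraries).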

How the data were processed

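RNA-seq libraries of sorted BM ECs from normal wt B6 mice were analysed, 4 Sca-1+ and 5 Sca-1-, grouped by the deposited labels. The authors deposited 1 table of raw read counts per Ensembl gene, not normalized. Per the submitters' processing notes, STAR, featureCounts and the mm10 build were used, and versions and the use of strand are not given in the sources used here. Libraries were made from poly(A) RNA with a low-input full-length kit without molecular identifiers, so floors cover counting error only.

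edgeR 4.0.16 in R 4.3.3 was applied to these counts. Genes were kept by filterByExpr (minimum count 10, minimum total 15), libraries were scaled by TMM, and the fractions were compared with the two-sided quasi-likelihood F-test and Benjamini-Hochberg adjustment over all 15937 genes tested, at a threshold of 0.05. The biological coefficient of variation was 0.549. A library at or under 3 counts was at the floor, and a prior count of 2 entered log2 CPM. Levels per kb used exon lengths of GENCODE M21, in which 45229 of 46078 identifiers were found. All sample columns were used. On simulated data of this comparison, 112 of 186 changed genes among 15432 were called (60.2%), with 4 unchanged genes called.

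The members and the lists were chosen with earlier results of these data known. Named were all members, Ptprc, Csf3r, Cxcr2, Ly6g, Csf1r, Cebpe and Ly6a, up to 4 genes of highest mean CPM in the granule, surface and transcription factor lists, and the 10 genes most like the members. Any further gene is marked where its values were known first, or is named as a called member of a list, and some list genes are not reported here. Alternatives changed the test (DESeq2 1.42.0, voom of limma 3.58.1), scaling, filter, fit, pairing or libraries. Plots used matplotlib 3.10.9 in Python 3.11.15.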

Additional observations from a re-analysis of the deposited data

Results flagged for a closer look

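In 5 of the 26 groups of 4 or 5 values tested, 1 library lay far from the others by Dixon's criterion, which chance meets in about 1 of 20 groups. In the Sca-1+ fraction this was library 19, with a log2 CPM of 7.379 for S100a8 against 0.748 to 1.015 in the others, of 7.506 for S100a9 against -0.27 to 0.767, and of 2.486 for Mmp8 against -3.631, the value of 0 counts, in each of the others. Its summed level of S100a8 and S100a9 (log2 of CPM + 0.5) was 8.445 against 1.509 to 2.006. This sum repeats the 2 genes flagged singly, and with the other Mmp8 values tied, any other value is flagged. The groups are thus not independent, and 5 of 26 cannot be read against 1 of 20. In the Sca-1- fraction it was library 14, with a log2 CPM of 9.223 for Mpo against 6.571 to 7.324 in the others.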

How the results depend on the processing

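Of the 10 members, 2 were called lower in Sca-1+ ECs with all libraries. The count was 5 by voom, 4 with the replicate block, 5 for the same 6 libraries with no replicate block, 5 without libraries 19 and 22, and 1 (without Sca-1+ replicate 13) to 7 (without Sca-1+ replicate 19) when 1 library was left out. It was 2 or 3 under the other alternatives, DESeq2 among them, and no member was called higher under any. Over all genes tested, 3335 of 15937 were called lower by voom and 2075 of 15924 with the replicate block. It was 2592 of 15924 with no replicate block and 2952 of 16158 without libraries 19 and 22. Without replicate 13 it was 2977 of 16455, and without replicate 19 it was 3109 of 16433. Every fit without library 19, those of the 6 libraries included, lowers in advance the Sca-1+ level of the 7 members highest in it. Prtn3 kept its call in 19 of 20 alternatives and Mpo in 16 of 20. Over all genes, 7137 were called (3721 higher, 3416 lower). Scaling to endothelial genes gave 13031 (344 higher, 12687 lower) and moved the median log2 fold change of all genes by -3.14, and library size alone gave 4158 higher and 2431 lower with a shift of 0.36. Scaling to endothelial genes also moved the mean log2 CPM of Prtn3 in Sca-1+ to -1.66 and, in Sca-1-, that of Mpo to 8.69, Prtn3 to 4.89, Lcn2 to 4.19 and Mmp8 to 1.61.

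The log2 fold changes of the following members turned sign. By voom, S100a8 was at -1.57, S100a9 at -2.36 and Ngp at -1.31. With library size alone, Mmp8 was at 0.32. Scaled to endothelial genes, S100a8 was at -1.99, S100a9 at -2.11, Ltf at -1.31, Camp at -1.98 and Ngp at -2.17, each smaller than the shift of all genes. Without libraries 19 and 22 the values were -4.07, -4.88, -3.92, -4.62 and -5.30 in the same order. With 1 library left out they ranged from -3.87 to 1.65 for S100a8, -4.70 to 1.47 for S100a9, -3.97 to 2.03 for Ltf, -4.50 to 1.64 for Camp, -5.26 to 1.41 for Ngp and -8.15 to 0.36 for Mmp8, the lowest always without library 19.

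The consecutive label numbers 7 and 8, 13 and 14, and 15 and 16 were taken as 3 pairs in the replicate block, which leaves out library 19. Their deviations from the fraction means correlated at 0.147, 0.148 and 0.042, against -0.191 to 0.065 in other pairs. With 1 of the 3 pairs under 0.1 they were not taken as paired in the main fit. That pair was 15 and 16, whose titles share a further number, so the correlations cannot decide whether the libraries were paired. Ddx3y was counted in both libraries of pairs 7 and 8 and 15 and 16, and had 0 counts in 13 and 14. Titles give 15 and 16, and 13 and 14, further terms in common. The block called 4340 genes, against 5360 for the same 6 libraries with no replicate block. Under the block the 4 members called were S100a8, S100a9, Lcn2 and Mmp8, and Mpo and Prtn3 were not (edgeR adjusted p = 0.0618 and 0.0603). With the block S100a8 was at -3.23, S100a9 at -4.23, Ltf at -0.48, Camp at -1.12 and Ngp at -1.78, and with no replicate block at -4.19, -5.02, -3.82, -4.62 and -5.33.

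The cause of these changes was not tested. In 4 members (Ltf, Camp, Lcn2 and Mmp8) at least 1 library had 0 counts, and their log2 values there depend on the prior count.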
